A study of Mus musculus with 6 samples.

Results

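The autophagy and lysosome genes measured here were 69 of the 13185 rows of the deposited table, taken by symbol. The symbols were those of the ATG proteins, ULK kinases, beclin 1, WIPI proteins, the ATG8 family, SQSTM1, the vacuolar proton pump, cathepsins, LAMP proteins, mucolipin channels, the Ragulator, the Rag GTPases and the transcription factors Tfeb and Tfe3. Ctsg, a granule protease of neutrophils, was left out. By role, 28 belonged to the autophagy core, 15 to the proton pump, 11 to the cathepsins, 9 to the Ragulator and Rag GTPases, 4 to lysosomal membrane proteins and channels and 2 to the transcription factors.

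The cells were mouse leukaemia cells of the T-ALL type (T-cell acute lymphoblastic leukaemia), labelled as Notch1 T-ALL. In 3 libraries, cells were given panobinostat, a histone deacetylase inhibitor, at 25 nM for 2 h. The other 3 libraries were from cells left untreated. Both groups grew on plates coated with an antibody to CD3 (2.5 ug/mL), part of the T cell receptor complex, and with IL-2, a growth factor for T cells (100 U/mL). How Notch1 was activated, whether the cells were 1 clone, and whether the libraries of a group were independent cultures is not given in the labels. Spread among libraries of a group may thus be technical, and it is all that the p-values measure. RNA was read from the polyadenylated ends of transcripts (3' mRNA sequencing), and the values are log2 counts per 1000000 reads (CPM).

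In autophagy, the ULK kinase complex starts the process, lipid kinases and lipid transfer proteins build a membrane sac, and ubiquitin-like ATG8 proteins are attached to that membrane to draw in cargo. The closed autophagosome fuses with a lysosome, which the vacuolar proton pump acidifies and in which cathepsins and other hydrolases digest the content. On the lysosomal surface the Ragulator anchors Rag GTPases, which bring the growth kinase mTORC1 there when amino acids are plentiful, and active mTORC1 holds back ULK1 and the factors TFEB and TFE3. These factors are known to bind E-box sequences in the promoters of many of these genes.

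Depth, estimated from the steps between low values, lay between 6010000 and 7740000 reads per library. Untreated library 1 stood nearest to the treated libraries on the first principal component, at -25.7, with -48.0 and -41.0 for the other untreated libraries and 35.4 to 43.2 for treated libraries. The T cell receptor gene Cd3d averaged 8.18 log2 CPM in treated and 8.69 in untreated libraries, and Cd3e averaged 6.02 in treated and 6.52 in untreated libraries. Of 13 T cell markers with a row, 7 fell. A further 4 had a fitted log2 fold change above 0 and did not pass (values ± SE): Cd3g (0.07 ± 0.11), Cd8a (0.06 ± 0.12), Cd8b1 (0.23 ± 0.11) and Cd4 (0.57 ± 0.35). Markers of other blood cells were present as well, and their values stand beside the cathepsins. In a bulk sample, fewer cells of a type and less RNA per cell cannot be told apart.

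The promoters of 6 members are shown to set Lamp2, which rose, beside its relative Lamp1, which did not pass, and Rragd beside Rragc, both of which rose, with Atp6v1a (rose) and Ctsd (fell) as genes whose window holds the E-box. They were chosen after the values were seen. Each runs from 250 bases before to 50 bases after the annotated start (RefSeq, build GRCm38.p6), 5' to 3' on the gene's strand. Capitals mark CACGTG, and TCACGTGA where the flanking letters extend it.
Lamp2 (chrX:38456411-38456710, minus strand): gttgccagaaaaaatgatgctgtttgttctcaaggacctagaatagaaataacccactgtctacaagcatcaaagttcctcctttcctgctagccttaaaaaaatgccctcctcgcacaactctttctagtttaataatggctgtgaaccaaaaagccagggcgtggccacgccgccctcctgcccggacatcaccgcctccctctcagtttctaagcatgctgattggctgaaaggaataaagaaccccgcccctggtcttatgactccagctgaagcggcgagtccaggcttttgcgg
Lamp1 (chr8:13158911-13159210, plus strand): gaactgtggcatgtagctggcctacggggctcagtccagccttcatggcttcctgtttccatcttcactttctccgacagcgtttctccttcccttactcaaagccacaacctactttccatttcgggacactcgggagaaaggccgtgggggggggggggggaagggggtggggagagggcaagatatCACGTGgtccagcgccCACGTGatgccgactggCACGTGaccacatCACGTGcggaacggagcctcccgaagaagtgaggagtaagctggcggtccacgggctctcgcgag
Atp6v1a (chr16:44139210-44139509, minus strand): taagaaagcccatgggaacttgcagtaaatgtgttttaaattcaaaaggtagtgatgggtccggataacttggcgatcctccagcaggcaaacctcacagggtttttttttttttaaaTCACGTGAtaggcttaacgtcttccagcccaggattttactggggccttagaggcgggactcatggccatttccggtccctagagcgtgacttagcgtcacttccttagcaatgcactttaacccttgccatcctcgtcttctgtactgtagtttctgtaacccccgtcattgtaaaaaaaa
Rragd (chr4:32982748-32983047, plus strand): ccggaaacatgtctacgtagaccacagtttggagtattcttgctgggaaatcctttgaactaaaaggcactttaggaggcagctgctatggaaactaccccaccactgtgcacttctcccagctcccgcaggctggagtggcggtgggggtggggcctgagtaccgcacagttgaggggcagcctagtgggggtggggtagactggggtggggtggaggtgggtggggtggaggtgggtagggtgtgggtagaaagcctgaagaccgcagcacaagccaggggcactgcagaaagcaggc
Rragc (chr4:123917183-123917482, plus strand): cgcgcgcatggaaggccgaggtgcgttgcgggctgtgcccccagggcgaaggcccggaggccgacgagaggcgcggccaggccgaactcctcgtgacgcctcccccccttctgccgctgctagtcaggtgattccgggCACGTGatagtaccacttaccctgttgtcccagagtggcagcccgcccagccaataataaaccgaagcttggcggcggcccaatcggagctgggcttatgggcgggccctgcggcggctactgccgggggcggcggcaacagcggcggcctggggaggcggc
Ctsd (chr7:142387778-142388077, minus strand): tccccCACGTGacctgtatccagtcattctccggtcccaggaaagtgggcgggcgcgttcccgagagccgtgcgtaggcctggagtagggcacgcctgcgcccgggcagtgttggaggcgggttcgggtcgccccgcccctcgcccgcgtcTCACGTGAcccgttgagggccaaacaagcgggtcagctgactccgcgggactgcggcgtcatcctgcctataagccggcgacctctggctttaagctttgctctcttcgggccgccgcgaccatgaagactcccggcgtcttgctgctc

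The palindrome CACGTG, which reads alike on both strands, lay in the promoters of 19 of 56 members with a promoter in the RefSeq table (33.9%). It lay in those of 11.99% of tested genes and 8.09% of all genes in that table. Among members that rose after panobinostat, 4 of 20 held it (Atp6v1a, Atp6v0b, Ctsl and Rragc). Among members that fell 2 of 4 held it, and among those that did not pass the test 13 of 32. By class, it was found in 4 of 24 genes of the autophagy core, 4 of 10 of the proton pump, 4 of 8 cathepsins, 4 of 8 Ragulator and Rag genes, 3 of 4 membrane and channel genes and 0 of 2 transcription factor genes. Lamp1, whose window holds several copies, did not pass the test, and Lamp2 and Rragd, which rose, have none in this window. The longer TCACGTGA, which contains CACGTG, was found in 7 of 56 members (12.5%) and 2.37% of tested genes. The CLEAR motif, which adds GT before and AC after CACGTG, was in 0 of 56 members and 0.876% of tested genes.

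The comparison asked how these genes responded to 2 h of panobinostat. Of the 69 members, all of which passed the minimum of a mean log2 CPM of 0, 25 rose and 4 fell. A call needed a Benjamini-Hochberg adjusted p under 0.05 by limma, over 12554 tested genes. Across those, 38.3% were called, 19.2% as rises and 19.0% as falls. The share of members called in either direction was near that of all genes, while by direction 36.2% of members rose and 5.80% fell. The median log2 fold change was 0.08 over the members and -0.01 over all tested genes. Without untreated library 1, 23 members rose and 10 fell, and over all tested genes 2677 rose and 2556 fell. Rises of at least 2-fold were called in 8 of 69 members, against 5.12% of all tested genes. Such rises numbered 6 to 8 with 1 library left out, with 6 without untreated library 2 or 3. Falls of that size were called by limma in 0 members, against 5.15% of all tested genes, and 0 members had one at an unadjusted p below 0.05. Without untreated library 1 limma called 2 falls of that size, Atp6v1g2 and Mcoln1, both of them low genes, and with library weights 1, of Atp6v1g2.

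**Figure D1:**
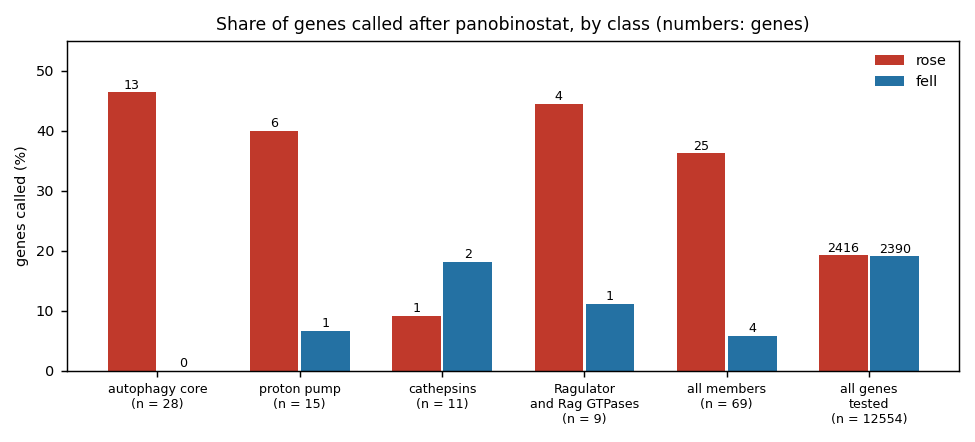
Bars give the percentage of genes that rose (red) or fell (blue) after panobinostat, for 4 classes of member, all members and all tested genes, with the number of genes above each bar. In the autophagy core 13 genes rose and 0 fell, and in the cathepsins 1 rose and 2 fell.

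The classes differed in their counts, which are described without a test between them. In the autophagy core 13 rose and 0 fell of 28 by limma, with 15 higher and 1 lower at an unadjusted p below 0.05. In the proton pump 6 rose and 1 fell of 15, and in the cathepsins 1 rose and 2 fell of 11. Rises were 46.4% of the core, 40.0% of the pump and 9.09% of the cathepsins, against 19.2% of all tested genes. Falls were 6.67% of the pump and 18.2% of the cathepsins, against 19.0% of all tested genes. The share of cathepsins that fell was thus near that of all genes. The share that rose was lower, but 1 gene of 11 is too small a count to set it apart from all genes. Median log2 fold changes were 0.26 in the core, 0.33 in the pump and -0.30 in the cathepsins. With 1 library left out, core rises numbered 8 to 12, with the fewest without any 1 treated library or untreated library 3, and pump rises 3 to 6, with the fewest without panobinostat library 3. Cathepsin falls numbered 1 to 3, with 1 in every such fit but that without untreated library 1. The groups did not overlap in 38 of 69 members, 31 of them higher and 7 lower in treated cells. Among all tested genes they did not overlap in 51.4%, with 25.7% higher and 25.7% lower in treated cells.

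**Figure D2:**
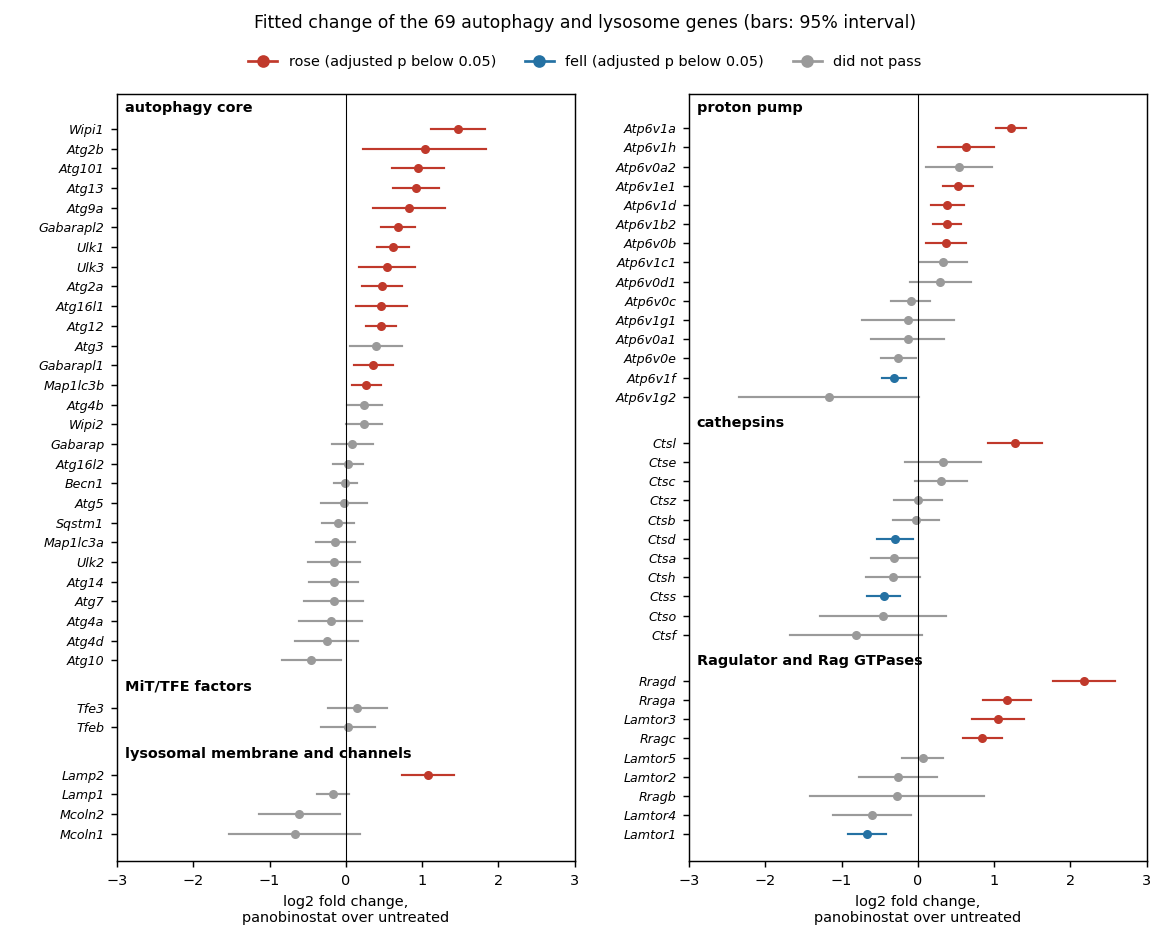
Points give the fitted log2 fold change (panobinostat over untreated) of each of the 69 members by class, with bars for the 95% interval and red, blue and grey for rose, fell and did not pass. Rragd lies farthest to the right at 2.18, and most cathepsins lie left of 0.

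The Rag GTPases held the largest fold change among the members. Rragd (chromosome 4, 32983037 to 33022180, build mm10), which encodes RagD, a GTPase that pairs with RagA or RagB, had 3.27, 3.396 and 3.35 log2 CPM in treated libraries, against 1.18, 1.15 and 1.15 in untreated libraries. Values lay close together within each group, and the groups lay far apart. It rose 4.53-fold (95% interval 3.42 to 6.003; log2 fold change 2.18 ± 0.17 SE, adjusted p = 0.000303 by limma). An estimated 58, 71 and 78 reads lay behind the treated values, against 18, 15 and 15 behind the untreated values. At so few reads, counting error is larger than the spread among the untreated libraries, so that spread does not measure their precision.

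Rragc (chromosome 4, 123917446 to 123936997), which encodes RagC, the closest relative of RagD, had 5.10, 4.89 and 5.09 log2 CPM in treated libraries, against 4.27, 4.11 and 4.16 in untreated libraries. It rose with no overlap (log2 fold change 0.85 ± 0.11 SE, adjusted p = 0.00146 by limma). Rraga (chromosome 4, 86575668 to 86577285), which encodes RagA, a partner of both, had 8.13, 8.13 and 8.11 log2 CPM in treated libraries, against 7.17, 7.08 and 6.62 in untreated libraries. The treated libraries were nearly identical and all untreated ones were lower (log2 fold change 1.17 ± 0.14 SE, adjusted p = 0.000951 by limma). Rragb, which encodes RagB, was low, with -0.43, 0.67 and 1.12 log2 CPM in treated libraries, against 0.76, 1.25 and 0.18 in untreated libraries, and its groups overlapped (log2 fold change -0.28 ± 0.49 SE, adjusted p = 0.684 by limma). In all, 3 of 4 Rag genes rose (75.0%, against 19.2% of all tested genes).

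Of the 5 Ragulator genes 1 rose and 1 fell, against 19.2% and 19.0% of all tested genes. Both shares were thus near those of all genes. Lamtor3 (chromosome 3, 137918506 to 137928900), a scaffold that also binds the kinase MEK1, had 6.54, 6.52 and 6.65 log2 CPM in treated libraries, against 5.87, 5.31 and 5.40 in untreated libraries and rose (log2 fold change 1.05 ± 0.15 SE, adjusted p = 0.00187 by limma). Lamtor1 (chromosome 7, 101905904 to 101926675), the lipid-anchored subunit that holds the complex on the lysosome, had 5.66, 5.54 and 5.68 log2 CPM in treated libraries, against 6.41, 6.08 and 6.37 in untreated libraries. It fell, and its groups did not overlap (log2 fold change -0.67 ± 0.11 SE, adjusted p = 0.00330 by limma). Lamtor2 (-0.26 ± 0.22), Lamtor4 (-0.60 ± 0.22) and Lamtor5 (0.06 ± 0.11) did not pass, where each value is the log2 fold change ± SE. Without untreated library 1, Lamtor4 passed as a fall. The end of Lamtor5 has near-identical copies elsewhere, so its reads are less certain. The median log2 fold change of the 9 genes was 0.06, and 4 of them were below 0. Their summed level lay between 522 and 529 CPM in treated libraries, against 319 to 372 CPM in untreated libraries, and Rraga, at 279 CPM in treated and 124 CPM in untreated cells (from mean log2 values), carried most of that difference.

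**Figure D3:**
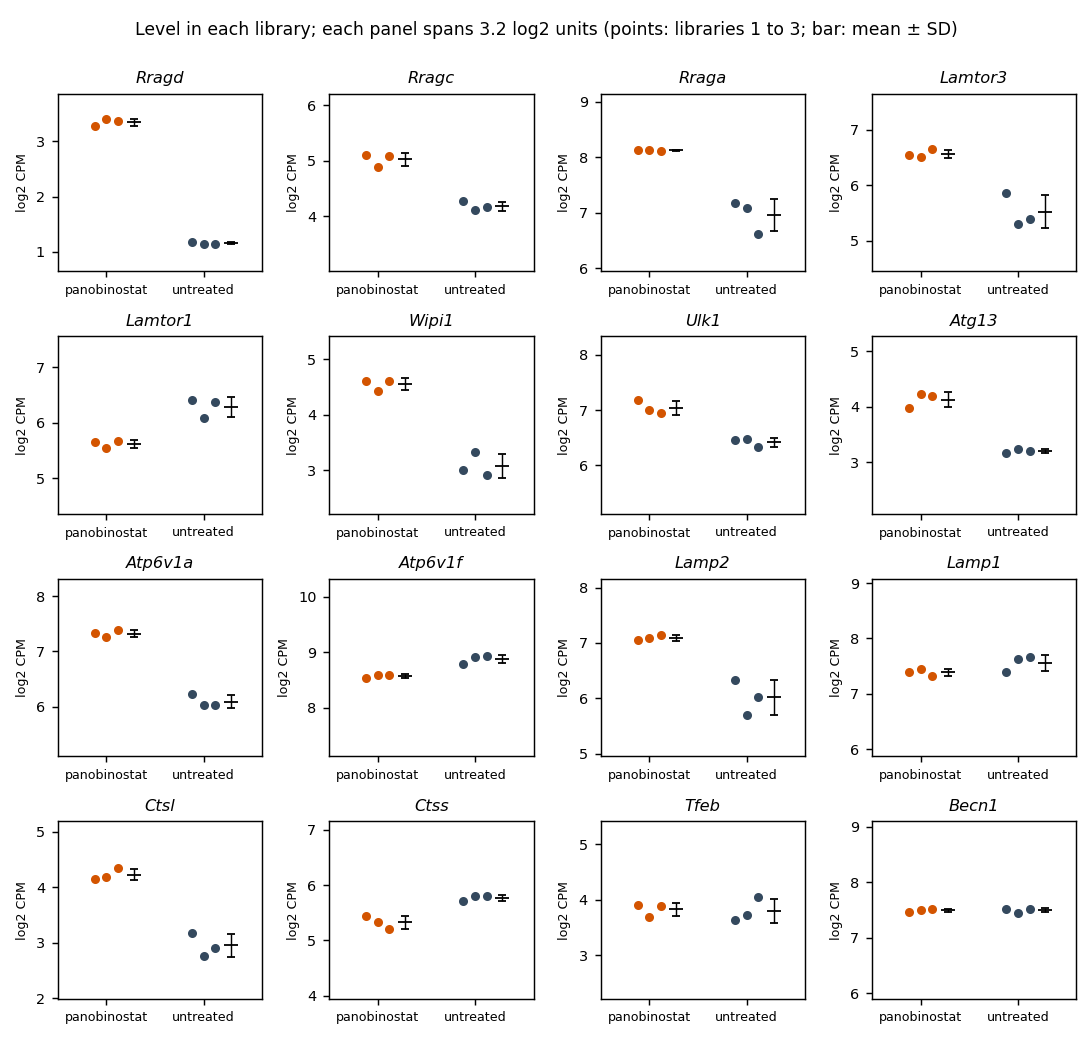
Each panel plots log2 CPM of 1 member in the 3 panobinostat libraries (left) and the 3 untreated libraries (right), with mean and SD beside the points, and all panels span the same number of log2 units. Rragd, Wipi1, Atp6v1a, Lamp2 and Ctsl are higher in every treated library, Lamtor1, Atp6v1f and Ctss are lower, and Becn1 and Tfeb overlap.

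At the head of autophagy, 4 of 5 genes of the ULK group rose (80.0%, against 19.2% of all tested genes). Ulk1 (chromosome 5, 110784488 to 110810097), the kinase that starts autophagy, had 7.17, 6.995 and 6.94 log2 CPM in treated libraries, against 6.46, 6.47 and 6.32 in untreated libraries. All treated libraries were higher (log2 fold change 0.62 ± 0.09 SE, adjusted p = 0.00211 by limma). Its partner gene Atg13 (chromosome 2, 91674618 to 91710576) had 3.98, 4.22 and 4.19 log2 CPM in treated libraries, against 3.17, 3.24 and 3.204 in untreated libraries (log2 fold change 0.92 ± 0.13 SE, adjusted p = 0.00185 by limma). Atg101 (chromosome 15, 101284272 to 101290945), which encodes the subunit that binds ATG13, had 6.88, 6.97 and 6.85 log2 CPM in treated libraries, against 5.63, 6.24 and 5.97 in untreated libraries (log2 fold change 0.95 ± 0.15 SE, adjusted p = 0.00262 by limma). In none of these 3 genes did the groups overlap. The related kinase gene Ulk3 rose (0.54 ± 0.16, limma adjusted p = 0.0288), a call kept only without untreated library 1 among the 6 fits with a library left out (0.41 to 0.67). Ulk2, a close relative of Ulk1, did not pass (-0.15 ± 0.15, limma adjusted p = 0.446). Rb1cc1, a gene of the ULK complex that the symbol pattern does not take, did not pass either (-0.17 ± 0.10, limma adjusted p = 0.196).

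Among genes for the growing membrane, 4 of 7 rose (57.1%, against 19.2% of all tested genes). Wipi1 (chromosome 11, 109573331 to 109611967), whose product binds the lipid PI3P on that membrane, had 4.61, 4.43 and 4.61 log2 CPM in treated libraries, against 2.997, 3.33 and 2.91 in untreated libraries. This was the largest change of the autophagy core, 2.77-fold (95% interval 2.18 to 3.54; log2 fold change 1.47 ± 0.15 SE, adjusted p = 0.000612 by limma). Wipi2, whose product recruits ATG16L1, was higher in every treated library and did not pass (0.24 ± 0.10, limma adjusted p = 0.104). The lipid transfer genes Atg2a (0.48 ± 0.11) and Atg2b (1.04 ± 0.35) rose, as did Atg9a (0.83 ± 0.20), a lipid scramblase of autophagic vesicles. Atg2b had 4.96, 5.05 and 5.21 log2 CPM in treated libraries, against 4.89, 3.30 and 3.92 in untreated libraries. Its untreated values were scattered, and its call was kept only without untreated library 1 (1.46; 0.67 to 1.46 over the 6 fits). The Atg2a call was lost without panobinostat library 2 (0.44) and that of Atg9a without panobinostat library 3 (0.69). The last 500 bases of Atg9a also lie in Gm29253 on the same strand (0.21 ± 0.11), so reads of the pair could be split.

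Becn1, the scaffold of the lipid kinase complex that makes PI3P, had 7.46, 7.498 and 7.53 log2 CPM in treated libraries, against 7.53, 7.45 and 7.53 in untreated libraries. These values overlapped, and the 95% interval of the log2 fold change ran from -0.16 to 0.15 (limma adjusted p = 0.951). Atg14, whose product directs beclin 1 to autophagy, did not pass either (-0.16 ± 0.14, limma adjusted p = 0.406). The transcript ends of Becn1 and Map1lc3b overlap genes on the other strand, and the strand setting of the counting is not given in the sources used here. Map1lc3b also has, near its end, a stretch of 100 or more bases at least 95% identical to parts of many other transcripts, so its reads are less certain.

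Of the conjugation systems, 2 of 10 genes rose and 0 fell, against 19.2% and 19.0% of all tested genes. The share that rose was thus near that of all genes. Atg12 (0.46 ± 0.09, limma adjusted p = 0.00569), the ubiquitin-like partner of ATG5, was higher in every treated library. Atg16l1 (0.47 ± 0.14, limma adjusted p = 0.0350), whose product brings that conjugate to the membrane, lost its call in 4 of 6 fits with a library left out, those without panobinostat library 1 (0.42), panobinostat library 3 (0.43), untreated library 2 (0.35) and untreated library 3 (0.47). Atg10 (-0.45 ± 0.17, limma adjusted p = 0.0664) was lower and Atg3 (0.40 ± 0.15, limma adjusted p = 0.0688) higher in every treated library, and neither of these E2-like enzyme genes passed. Without panobinostat library 2, Atg10 passed as a fall. The E1-like Atg7 (-0.16 ± 0.17), Atg5 (-0.02 ± 0.13), the ATG8 proteases Atg4a (-0.20 ± 0.18), Atg4b (0.24 ± 0.10) and Atg4d (-0.25 ± 0.18), and Atg16l2 (0.03 ± 0.08) did not pass. Atg4a shares most of its transcript end with Atg4a-ps, so its reads are uncertain.

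Among the ATG8 proteins and the cargo receptor SQSTM1, 3 of 6 rose, against 19.2% of all tested genes. Of these calls, only that of Gabarapl2 was kept in every fit with 1 library left out. Gabarapl2 (chromosome 8, 111940703 to 111953612), also called GATE-16, had 6.48, 6.63 and 6.60 log2 CPM in treated libraries, against 5.96, 5.72 and 5.97 in untreated libraries (log2 fold change 0.69 ± 0.10 SE, adjusted p = 0.00191 by limma). Gabarapl1 had 5.89, 5.86 and 5.58 log2 CPM in treated libraries, against 5.38, 5.50 and 5.37 in untreated libraries (log2 fold change 0.36 ± 0.11 SE, adjusted p = 0.0354 by limma). Map1lc3b, which encodes the LC3B used as a marker of autophagosomes, had 6.62, 6.56 and 6.62 log2 CPM in treated libraries, against 6.24, 6.45 and 6.30 in untreated libraries (log2 fold change 0.27 ± 0.08 SE, adjusted p = 0.0373 by limma). In Gabarapl1 and Map1lc3b the groups did not overlap but lay close together. With 1 library left out, the Gabarapl1 call was kept only without panobinostat library 3 or untreated library 2 (0.30 to 0.46 over the 6 fits). The Map1lc3b call was kept only without untreated library 2 (0.23 to 0.33). Their relatives Gabarap (0.08 ± 0.12) and Map1lc3a (-0.14 ± 0.11) did not pass. Sqstm1 (p62) had 6.57, 6.32 and 6.40 log2 CPM in treated libraries, against 6.47, 6.57 and 6.55 in untreated libraries, and its groups overlapped (-0.10 ± 0.09, limma adjusted p = 0.404). The summed level of the 28 core genes lay between 1569 and 1614 CPM in treated libraries, against 1274 to 1321 CPM in untreated libraries.

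**Figure D4:**
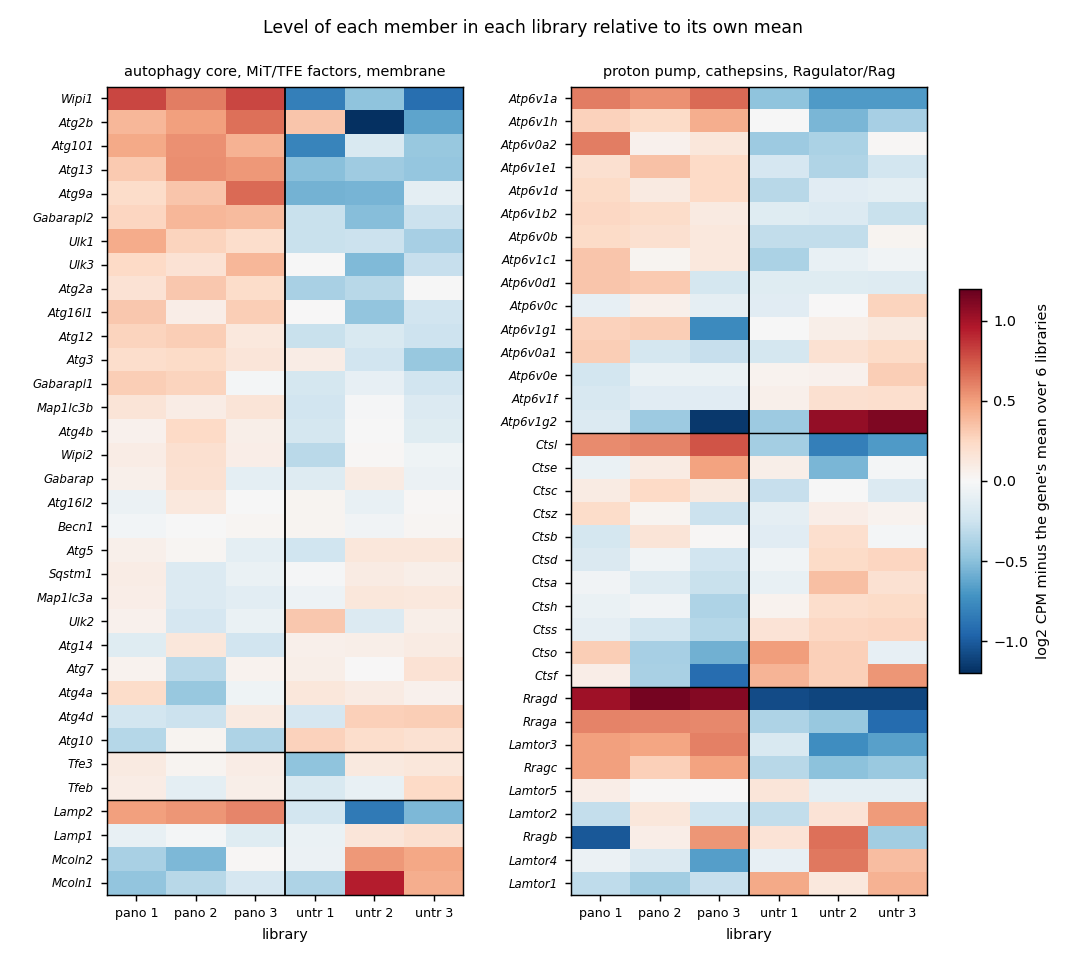
Each row is a member and each column a library (3 panobinostat, left, and 3 untreated, right), and colour gives log2 CPM minus the member's own mean over the 6 libraries. Rragd, Wipi1, Atp6v1a and Ctsl are above their mean in all treated libraries and below it in all untreated libraries, while in Atg2b and Mcoln1 untreated library 1 lies on the side of the treated libraries.

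In the vacuolar proton pump, 5 of 9 genes rose and 1 fell in V1, the sector in the cytosol that hydrolyses ATP. In V0, the membrane sector, 1 of 6 rose, and the difference between the sectors was not tested. Rises were 55.6% of V1 genes and 16.7% of V0 genes, against 19.2% of all tested genes. The V1 fall was 11.1% of its genes, against 19.0% of all tested genes. Atp6v1a (chromosome 16, 44085402 to 44139705), which encodes the catalytic subunit, had 7.32, 7.25 and 7.38 log2 CPM in treated libraries, against 6.22, 6.03 and 6.03 in untreated libraries. It rose 2.34-fold with well-separated groups (95% interval 2.03 to 2.68; log2 fold change 1.22 ± 0.09 SE, adjusted p = 0.000225 by limma). Atp6v1b2, which encodes the other nucleotide-binding subunit, had 6.86, 6.83 and 6.72 log2 CPM in treated libraries, against 6.47, 6.45 and 6.35 in untreated libraries. It rose 1.30-fold, and its groups did not overlap (log2 fold change 0.38 ± 0.08 SE, adjusted p = 0.00805 by limma).

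The stalk gene Atp6v1e1 had 6.85, 7.01 and 6.91 log2 CPM in treated libraries, against 6.46, 6.30 and 6.44 in untreated libraries (log2 fold change 0.53 ± 0.08 SE, adjusted p = 0.00285 by limma). The rotor gene Atp6v1d had 6.53, 6.41 and 6.54 log2 CPM in treated libraries, against 5.96, 6.16 and 6.19 in untreated libraries (log2 fold change 0.39 ± 0.09 SE, adjusted p = 0.0133 by limma). Both were higher in every treated library, though the Atp6v1d call was lost without panobinostat library 3 (0.36). Atp6v1h, a regulatory subunit gene, rose (0.63 ± 0.16, limma adjusted p = 0.0168), with the call lost without panobinostat library 3 (0.57) or untreated library 3 (0.59). Atp6v1f, which encodes a small rotor subunit, went the other way, with 8.53, 8.58 and 8.59 log2 CPM in treated libraries, against 8.79, 8.92 and 8.93 in untreated libraries. It fell with no overlap (log2 fold change -0.31 ± 0.07 SE, adjusted p = 0.0109 by limma). Part of its transcript end is nearly identical to AC169506.3, so its reads are less certain.

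The remaining V1 genes did not pass. Atp6v1c1 was higher in every treated library (0.33 ± 0.13), Atp6v1g2 was low and scattered (-1.17 ± 0.51; a fall that passed without untreated library 1), and Atp6v1g1 stood at -0.12 ± 0.26. Atp6v1g1 had 7.83, 7.85 and 6.79 log2 CPM in treated libraries, against 7.55, 7.62 and 7.67 in untreated libraries, so that panobinostat library 3 lay apart from the other 5. In V0, Atp6v0b, a proteolipid of the membrane ring, rose (0.37 ± 0.11, limma adjusted p = 0.0354), a call kept only without untreated library 3 among the fits with a library left out (0.31 to 0.47). The other ring gene Atp6v0c, the most abundant member by log2 CPM, had 8.95, 9.12 and 8.94 log2 CPM in treated libraries, against 8.92, 9.06 and 9.32 in untreated libraries and overlapped (-0.09 ± 0.11). Atp6v0a2 (0.54 ± 0.19), Atp6v0e (-0.25 ± 0.10), Atp6v0d1 (0.30 ± 0.17) and Atp6v0a1 (-0.13 ± 0.21) did not pass. Tcirg1, the pump's a3 subunit gene, which the symbol pattern does not take, rose (0.68 ± 0.14, limma adjusted p = 0.00709). The pump accessory genes Atp6ap1 (-0.12 ± 0.13) and Atp6ap2 (-0.12 ± 0.14), likewise outside the pattern, did not pass. The summed level of the 15 pump genes lay between 1717 and 1894 CPM in treated libraries, against 1639 to 1890 CPM in untreated libraries, with overlap.

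Of the cathepsins, 8 of 11 had a fitted change below 0, of which 2 passed. Among all tested genes 6324 of 12554 were below 0. Ctsb and Ctsz, counted among the 8, were close to 0 (-0.03 and -0.003). Ctsl (chromosome 13, 64359337 to 64370890), a cysteine protease, rose, with 4.16, 4.18 and 4.34 log2 CPM in treated libraries, against 3.19, 2.77 and 2.91 in untreated libraries. Its groups were well separated (2.42-fold, 95% interval 1.89 to 3.09; log2 fold change 1.27 ± 0.15 SE, adjusted p = 0.00106 by limma). Ctss (chromosome 3, 95526786 to 95556403), a cysteine protease that trims the invariant chain in antigen-presenting cells, had 5.44, 5.33 and 5.20 log2 CPM in treated libraries, against 5.71, 5.80 and 5.80 in untreated libraries. It fell with no overlap (log2 fold change -0.45 ± 0.10 SE, adjusted p = 0.00875 by limma). Ctsd, the main aspartic protease of lysosomes, had 7.62, 7.75 and 7.57 log2 CPM in treated libraries, against 7.75, 8.02 and 8.05 in untreated libraries. Panobinostat library 2 met untreated library 1, and the fall was small (-0.30 ± 0.10, limma adjusted p = 0.0492). Its call was kept only without untreated library 1 (-0.39; -0.39 to -0.24 over the 6 fits).

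Ctsb, a cysteine protease found in most cells, had 5.33, 5.69 and 5.56 log2 CPM in treated libraries, against 5.40, 5.74 and 5.52 in untreated libraries, and the groups overlapped (-0.03 ± 0.13, limma adjusted p = 0.879). Its transcript end overlaps Fdft1 on the other strand, which rose (1.05 ± 0.09). The end of Ctsz (0.00 ± 0.14) likewise overlaps Nelfcd, which fell (-1.10 ± 0.18). Ctsa (-0.31 ± 0.13), Ctsh (-0.33 ± 0.15), Ctsf (-0.82 ± 0.37), Ctso (-0.46 ± 0.36), Ctsc (0.30 ± 0.15) and Ctse (0.33 ± 0.21) did not pass. Ctsf and Ctso rested on an estimated 5 to 18 reads per library. The summed cathepsin level lay between 401 and 442 CPM in treated libraries, against 433 to 508 CPM in untreated libraries, with overlap.

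Markers of blood cells also stood lower in treated libraries. The 10 of 12 macrophage markers with a row summed to between 107 and 113 CPM in treated libraries, against 142 to 180 CPM in untreated libraries. Of these 3 fell, namely Lyz2 (-0.62 ± 0.11), C1qa (-0.55 ± 0.12) and Csf1r (-1.35 ± 0.36). Mrc1 (0.20 ± 0.16) and Adgre1 (0.54 ± 0.58) had a fitted change above 0 and did not pass. The 10 of 11 neutrophil markers summed to between 1200 and 1311 CPM in treated libraries, against 1480 to 1639 CPM in untreated libraries, and 3 fell. The 7 of 8 B cell markers summed to between 92.8 and 104 CPM in treated libraries, against 124 to 134 CPM in untreated libraries, and 3 fell. The 13 of 14 T cell markers summed to between 1845 and 1962 CPM in treated libraries, against 2464 to 2637 CPM in untreated libraries, and 7 fell. In these 4 lists 0 markers rose by limma, and 0 were higher at an unadjusted p below 0.05. Of all tested genes 19.2% rose and 19.0% fell. The 7 erythroid markers summed to between 6306 and 6708 CPM in treated libraries, against 6708 to 7964 CPM in untreated libraries, with 1 that rose and 4 that fell. Of 7 stromal markers 1 had a row, Pdgfrb, which did not pass (1.06 ± 0.40, limma adjusted p = 0.0690). The part of these cells in the cathepsin values was not tested.

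At the lysosomal membrane, Lamp2 (chromosome X, 38401357 to 38456454), a glycoprotein that takes part in fusion and in chaperone-mediated autophagy, had 7.05, 7.09 and 7.14 log2 CPM in treated libraries, against 6.33, 5.70 and 6.02 in untreated libraries. It rose 2.105-fold (95% interval 1.66 to 2.67; log2 fold change 1.07 ± 0.15 SE, adjusted p = 0.00175 by limma). Lamp2 isoforms differ in their last exon, which 1 row per gene does not separate. Lamp1, its close relative, had 7.39, 7.45 and 7.33 log2 CPM in treated libraries, against 7.39, 7.62 and 7.66 in untreated libraries, and its groups overlapped (-0.17 ± 0.09, limma adjusted p = 0.171). Part of the Lamp1 transcript end overlaps Grtp1 on the other strand. Mcoln1, a calcium channel of lysosomes, was low, with 0.65, 0.80 and 0.93 log2 CPM in treated libraries, against 0.76, 2.07 and 1.57 in untreated libraries (-0.67 ± 0.37, limma adjusted p = 0.190). Its relative Mcoln2 did not pass either (-0.61 ± 0.23). Falls of Lamp1 (-0.25) and Mcoln1 (-1.03), and of Mcoln2, passed without untreated library 1.

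The transcription factors did not pass. Tfeb had 3.903, 3.70 and 3.88 log2 CPM in treated libraries, against 3.63, 3.72 and 4.05 in untreated libraries, with a 95% interval of the log2 fold change from -0.33 to 0.38 (limma adjusted p = 0.903). Tfe3 had 5.42, 5.34 and 5.39 log2 CPM in treated libraries, against 4.83, 5.42 and 5.44 in untreated libraries (0.15 ± 0.17, limma adjusted p = 0.5005). Untreated library 1 was the low value of Tfe3, and without it the log2 fold change was -0.05. The activity of these factors depends on where they lie in the cell, which RNA levels do not show.

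Related genes outside the symbol pattern were read from the same fit. Of all tested genes 19.2% rose and 19.0% fell. Among selective autophagy receptors 7 rose and 1 fell of 13 measured (53.8% and 7.69%). The mitophagy receptor gene Phb2 (0.51 ± 0.07), the ER-phagy receptor gene Ccpg1 (0.74 ± 0.11) and the ferritin receptor gene Ncoa4 (0.70 ± 0.12) rose, and the mitophagy receptor gene Fundc1 (-0.60 ± 0.10) fell, with 2 falls without panobinostat library 2. Among other autophagy genes 5 rose and 6 fell of 25 measured, with 2 rises without panobinostat library 1 and 3 without untreated library 3. The fusion gene Vamp8 (-1.24 ± 0.16), the HOPS tethering gene Vps16 (-0.62 ± 0.10) and Ambra1 (-0.59 ± 0.10), a regulator of beclin 1, were among the falls. The tethering genes Tecpr1 (0.53 ± 0.08) and Epg5 (0.97 ± 0.22) and the inhibitor gene Rubcn (0.71 ± 0.17) rose, the last not without panobinostat library 1 (0.63).

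**Figure D5:**
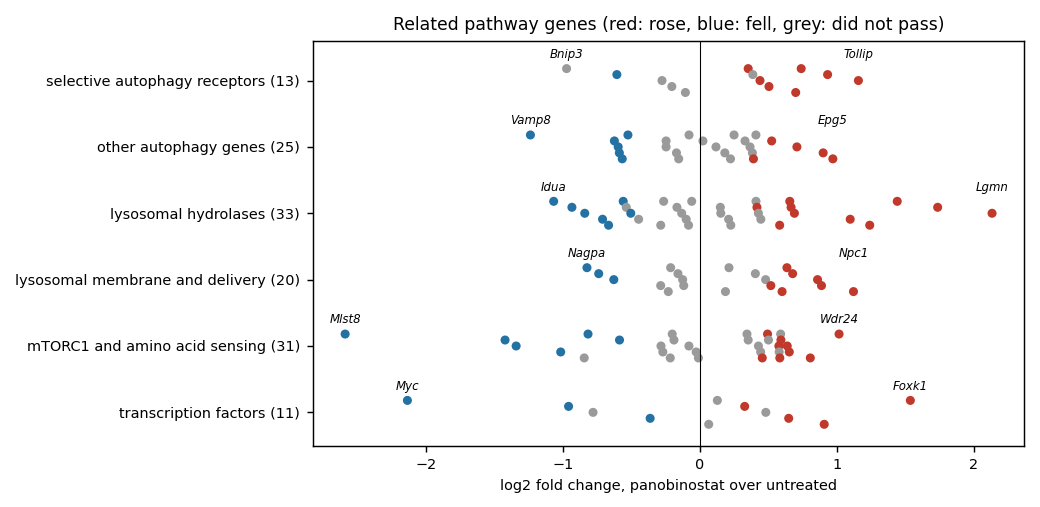
Points give the log2 fold change (panobinostat over untreated) of related genes by list, red for rose, blue for fell and grey for did not pass, with the lowest and highest gene of each list named. Hydrolases and mTORC1 genes spread to both sides of 0, with Mlst8 at -2.59.

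Of 33 lysosomal hydrolases other than cathepsins, 10 rose and 7 fell (30.3% and 21.2%, against 19.2% and 19.0% of all tested genes). The sialidase gene Neu1 (1.24 ± 0.11) and the acid lipase gene Lipa (1.10 ± 0.14) rose. The iduronate sulfatase gene Ids (-0.67 ± 0.13), the beta-galactosidase gene Glb1 (-0.50 ± 0.12) and the acid phosphatase gene Acp2 (-0.84 ± 0.22) fell. The Glb1 call was lost without panobinostat library 3 (-0.46), and the Acp2 call without panobinostat library 3 (-0.68) or untreated library 2 (-0.76) or 3 (-0.74). Without panobinostat library 1 or 3 the falls numbered 4 and 1, and without untreated library 2 or 3 they numbered 2 and 3. Without panobinostat library 3 the rises numbered 6.

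Of genes for the lysosomal membrane and for delivery of hydrolases 7 rose and 3 fell of 20 measured, with 4 rises without panobinostat library 3. These were 35.0% and 15.0%, against 19.2% and 19.0% of all tested genes. The cholesterol exporter gene Npc1 (1.12 ± 0.12) and the mannose 6-phosphate receptor genes M6pr (0.86 ± 0.11) and Igf2r (0.89 ± 0.15) rose. Scarb2 (-0.74 ± 0.12), which carries glucocerebrosidase, Nagpa (-0.82 ± 0.15), which uncovers the mannose 6-phosphate tag, and Cln3 (-0.63 ± 0.21) fell. The Cln3 call was lost in each of the 6 fits with a library left out (-0.73 to -0.50).

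Of mTORC1 and its amino acid sensing genes 9 rose and 6 fell of 31 measured. These were 29.0% and 19.4%, against 19.2% and 19.0% of all tested genes. Mlst8, an mTORC1 subunit gene, had 3.54, 3.82 and 3.80 log2 CPM in treated libraries, against 6.11, 6.46 and 6.36 in untreated libraries and fell (log2 fold change -2.59 ± 0.13 SE, adjusted p = 0.000101 by limma). Mios (-1.34 ± 0.14), of the GATOR2 complex, and Prkag1 (-1.01 ± 0.14), an AMPK subunit gene, fell too. Fnip1 (0.81 ± 0.11), whose product acts with folliculin on RagC and RagD, and the GATOR2 genes Wdr59 (0.65 ± 0.12) and Wdr24 (1.02 ± 0.21) rose. Mtor, the kinase gene of mTORC1, rose as well (0.50 ± 0.11). The mTORC1 subunit genes Rptor (-0.21 ± 0.13), Akt1s1 (-0.84 ± 0.34) and Deptor (0.43 ± 0.22) did not pass. Among other transcription factors linked to these genes 4 rose and 3 fell of 11 measured (36.4% and 27.3%). Max (0.91 ± 0.10), the partner of Myc, the forkhead gene Foxk1 (1.54 ± 0.24) and Zkscan3 (0.65 ± 0.16), described as a repressor of autophagy genes, rose, the last not without panobinostat library 3 (0.54). The E-box binding gene Usf2 (-0.96 ± 0.15), Myc (-2.13 ± 0.48) and Foxo4 (-0.36 ± 0.12) fell, with the Foxo4 call kept only without untreated library 1 (-0.47 to -0.30 over the 6 fits). Myc was low, with 0.02, -1.62 and -0.52 log2 CPM in treated libraries, against 1.64, 1.49 and 1.15 in untreated libraries. Of cathepsin and granzyme inhibitors 1 rose and 1 fell of 6 measured (16.7% each). Cstb (1.40 ± 0.22), which encodes cystatin B, rose, and Serpinb9 (-2.59 ± 0.30), which encodes an inhibitor of granzyme B, fell. Serpinb9 was low in treated libraries, with 0.02, 0.35 and -0.52 log2 CPM, against 2.56, 2.57 and 2.50 in untreated libraries.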

How the data were processed

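RNA of 3 panobinostat-treated and 3 untreated libraries was measured by 3' mRNA sequencing (QuantSeq, 100 ng of total RNA each, per the labels' protocols), and libraries were grouped by the labelled treatment. The submitters' processing notes name cutadapt 1.9, HISAT2 2.1.0, Subread 1.5.0 with featureCounts, limma and the build mm10. No annotation, strand setting or filter is stated there. The authors deposited log2 values. From the values they were taken as log2 CPM, quantile normalized between libraries: their powers of 2 summed to between 994114 and 994182, and all 6 libraries lay within 0.05 of their common mean in 87.6% of sorted rows. A shift of all genes in the same direction can therefore not be seen. Depth was estimated from 200 steps between low values, taking 1 step as 1 read. Reads carry no molecular identifiers, so depth covers counting error only.

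Genes with a mean log2 CPM of at least 0 were tested, which left out 631 rows. limma 3.58.1 in R 4.3.3 (eBayes with a trend) was fitted to the values without a pseudocount, with Benjamini-Hochberg adjustment over 12554 genes and a threshold of 0.05, and was tested on simulated data. Python 3.11.15, pandas 2.3.3 and matplotlib 3.10.9 served for tables and figures. Values after ± are SE of a log2 fold change. Library numbers are those of the table's column names, since the titles number every library alike. Members and lists were chosen with earlier results of these data known. Given in full are up to 4 called members per class and direction with the smallest adjusted p and a set of key genes (Ctsw among them had no row analysed here), and from each related list up to 3 called genes per direction. Of these, 1 gene that the rule takes is not reported here. Other genes were added after their values were seen. Positions and overlapping or near-identical transcript ends (at least 95% over 100 bases of the last 500) came from GENCODE M21 on that build, and all 69 symbols matched a coding gene there. Alternatives were other filters and scalings, a pseudocount of 1, other spread models, library weights, a threshold of 0.01, a replicate block and each library left out.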

Additional observations from a re-analysis of the deposited data

How the results depend on the processing

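Over 575 alternative values of the 36 members called or given in full, 498 kept direction and side of the threshold, 64 lost the call, 3 gained it and 10 changed sign. Of 29 called members, 18 kept the call in all 6 fits with 1 library left out, and 17 in every alternative run. With a threshold of 0.01, 1240 genes rose and 1273 fell, with 15 and 2 among members, 6 rises in the core, 3 rises and 0 falls in the pump, and 1 cathepsin fall. With library weights 11 members fell: 3 in the pump, 4 cathepsins, 2 membrane genes and 2 Ragulator and Rag genes. Over all tested genes 3089 rose and 3018 fell in that run, against 2416 and 2390 in the main fit. Cathepsin falls numbered 1 without a filter, with median centring, without a trend and with the replicate block. Without a trend 1 core gene fell, and with a robust fit 2 Ragulator and Rag genes fell. The cause was not tested.

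With 1 library left out, 1582 to 2677 genes rose and 1634 to 2556 fell. Among members 17 to 23 rose and 3 to 10 fell. Rises numbered 8 to 12 in the core and 3 to 6 in the pump. Falls numbered 0 to 1 in the core, 1 to 2 in the pump, 1 to 3 in the cathepsins, 0 to 3 in the membrane class and 1 to 2 in the Ragulator and Rag class. Log2 fold changes that changed sign, none of them called, ranged over these fits from -0.030 to 0.0099 for Becn1, -0.11 to 0.070 for Ctsb, -0.049 to 0.26 for Tfe3 and -0.058 to 0.15 for Tfeb, and Tfeb stood at -0.12 with library weights. No pairing by column number was seen (correlations of deviations -0.04, 0.10 and -0.01 for libraries of the same number). Libraries of unlike number gave -0.16 to 0.15, so this check cannot exclude a pairing. The replicate block gave 2079 rises and 2069 falls over all genes, and 22 and 3 among members, without the calls of Atg2b, Atp6v0b, Ctsd and Map1lc3b. Among members, depth limits Rragb, Mcoln1, Ctsf, Ctso and Atp6v1g2, with an estimated 4 to 28 reads per library. Outside them, it also limits Myc and Serpinb9, which averaged -0.71 and -0.05 log2 CPM in treated libraries.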
